A study of Xenopus laevis with 15 samples.

Results

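Aminoacyl-tRNA synthetases attach each amino acid to its transfer RNA, the step that supplies every ribosome with charged tRNA. Animal cells carry a cytosolic set and a mitochondrial set of these enzymes, both encoded in the nucleus. By convention the gene names of the mitochondrial set end in 2, as in rars2. The enzymes fall into class I and class II, which differ in the fold of the catalytic domain. In vertebrates several cytosolic members are held together in a multi-synthetase complex by the scaffold proteins AIMP1, AIMP2 and EEF1E1. Loss of charged tRNA is sensed by the kinase GCN2, which phosphorylates the initiation factor eIF2 and raises translation of the transcription factor ATF4. In mammals ATF4 in turn drives many cytosolic synthetase genes.

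The genes were chosen by name: a counted gene entered when its description in the authors' deposited table held the words tRNA synthetase or tRNA ligase, and every gene copy was kept. This gave 50 of 37018 counted genes. Of these 27 encode cytosolic enzymes and 18 mitochondrial enzymes. Another 4 are accessory or domain-bearing proteins: aimp1.S and aimp2.L, scaffolds of the complex, and aarsd1.L and prorsd1p.L, which carry domains related to the editing domains of synthetases. The last is a valine ligase-like gene, LOC108698575, whose description names no compartment. The cytosolic genes covered 16 amino acids and the mitochondrial genes 15. Xenopus laevis is an allotetraploid frog, so many genes exist as a pair of homeologs, marked .L and .S.

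The RNA came from pools of whole Xenopus laevis embryos, 3 individuals per pool, with 5 pools per group. The parents came from a breeding colony of adults; no strain, transgene or mutation is named in the labels. The control group was kept in water, and the other groups, called lead 210 and lead 630 here, received lead(II) nitrate at nominal levels of 210 or 630. The labels and the treatment protocol give different units for those levels (ng/L and µg/L), so none is printed. All groups were exposed for 96 h from about stage 29 of Nieuwkoop and Faber, 48 h after fertilization, at 21 °C, and were sampled at an age of 6 days.

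The libraries held 10.8 to 24.7 M counts, with group means of 17.3 M (control), 15.6 M (lead 210) and 18.1 M (lead 630). As a check of the exposure labels, mt4.L, which encodes the metal-binding protein metallothionein, rose from 95.4 ± 12.0 CPM in controls (SD, n = 5) to 543 ± 124 at lead 210 and 735 ± 119 at lead 630 (adjusted p = 2.19e-08 and 2.27e-09, edgeR). CPM here is the count scaled to a normalised library size and is not corrected for transcript length, so it does not rank genes by number of transcripts. Where genes are binned or summed by CPM below, it stands for the number of counts. Marker lists of liver, skeletal muscle, neurons, epidermis, blood and intestine all had counts in every library, as whole bodies would give. The control library B stood apart. Its exocrine pancreas markers summed to 2030 CPM, against at most 49.0 CPM in the other 14 libraries. Without control library B, 1 synthetase gene was called higher at lead 630 and 2 at lead 210, the same numbers as with it, but the genes differed. vars1.S took the place of rars2.S at lead 630 (log2 fold change 0.39, adjusted p = 0.041, edgeR) and of mars1.S at lead 210 (0.40, adjusted p = 0.0405).

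Synthetase genes found by name lay slightly above control as a group in embryos exposed to lead 630, and 1 of them passed the test. Of the 49 such genes tested, 42 had a log2 fold change above 0, and the median was 0.17, a 1.12-fold difference. Another 8 cytosolic synthetase genes, outside the name search and described further on, are not in these values. Their median was 0.01, and with them the cytosolic median fell from 0.15 to 0.08. Across all 27060 genes tested 48.7% were above 0 and the median was -0.0052. Only rars2.S was called higher at an adjusted p under 0.05 with edgeR's quasi-likelihood test, and none was called lower. The background was 1.98% of all genes called higher and 0.303% called lower, so 1 of 49 is near the background share. At an unadjusted p under 0.05, 18 of the 49 were higher and 0 lower, against 8.32% and 4.62% of all genes. In whole-embryo RNA, a change in the number of cells of a type and a change in RNA per cell cannot be told apart.

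The gene that passed, rars2.S, encodes the mitochondrial arginine enzyme. Its levels in control libraries A to E were 7.03, 6.39, 6.86, 8.34 and 6.48 CPM. The lead 210 libraries held 9.35, 9.0, 8.18, 9.41 and 7.56 CPM, and the lead 630 libraries 9.79, 8.90, 9.01, 8.89 and 8.94 CPM. Every lead 630 library lay above every control library, while at lead 210 libraries C and E lay below the highest control. The log2 fold change was 0.38 ± 0.10 (SE) at lead 630, a 1.30-fold rise with a 95% interval of 1.13 to 1.49 (adjusted p = 0.0468). At lead 210 it was 0.32 ± 0.10 (adjusted p = 0.131). The call at lead 630 was lost in 9 of the 10 fits that left out a control or lead 630 library, with an adjusted p of up to 0.118; it held without control library D. In the authors' deposited table the adjusted p of rars2.S at lead 630 was 0.0836 (likelihood-ratio test), the lowest of the 50 genes, so that table called none of them there. Of all 28950 genes in it, 764 were under 0.05, higher or lower.

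**Figure D1:**
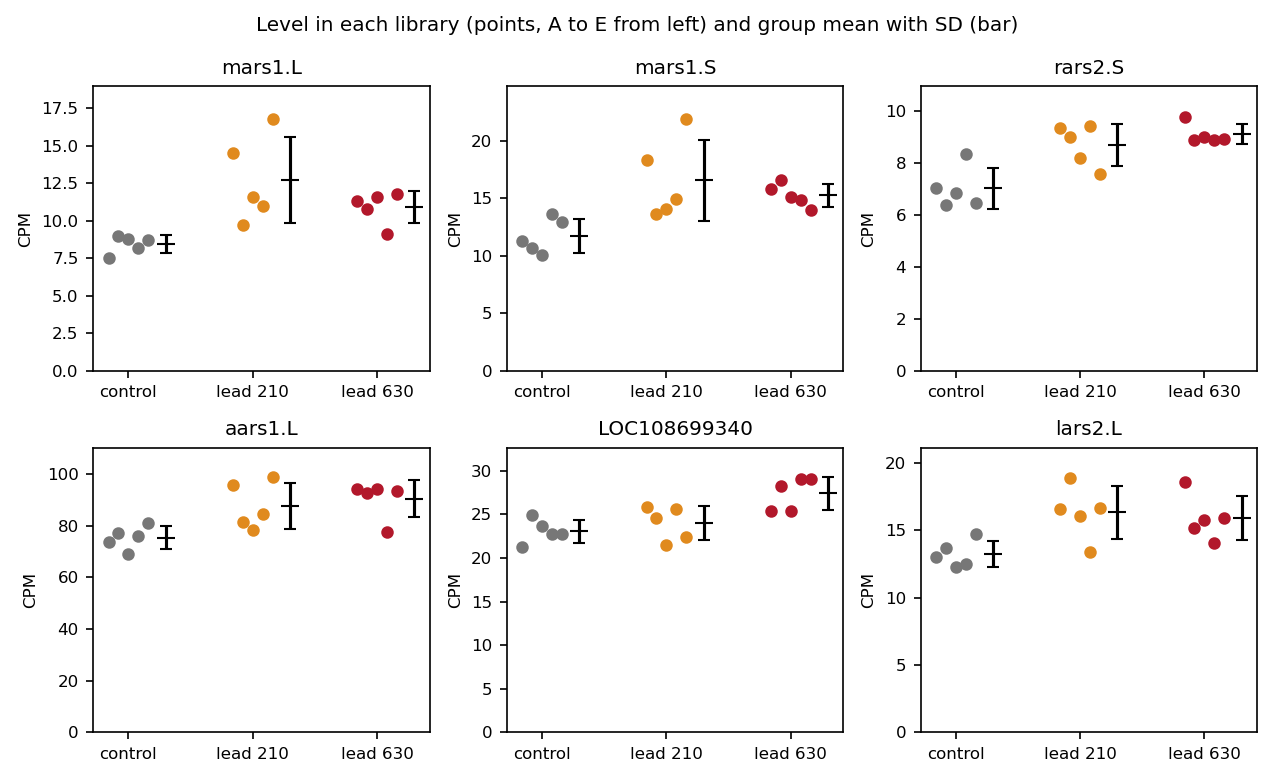
CPM in each library (points, A to E from left) and mean with SD (bar, n = 5) for 6 synthetase genes; axes start at 0. The mars1 copies and rars2.S in lead 630 libraries all lie above the control libraries, while aars1.L and lars2.L overlap with them.

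At lead 210 the genes that passed were the pair of homeologs of the cytosolic methionine enzyme, mars1.L and mars1.S. This enzyme charges both the initiator and the elongator methionine tRNA and belongs to the multi-synthetase complex. In controls mars1.L stood at 7.55, 9.02, 8.81, 8.18 and 8.75 CPM. At lead 210 it stood at 14.5, 9.73, 11.6, 11 and 16.8 CPM, and at lead 630 at 11.3, 10.8, 11.6, 9.13 and 11.8 CPM. All 10 exposed libraries exceeded the highest control, with the widest spread at lead 210, where libraries A and E were highest. The log2 fold change was 0.59 ± 0.13 at lead 210, 1.5-fold with a 95% interval of 1.25 to 1.81 (adjusted p = 0.0193, edgeR), and 0.37 ± 0.13 at lead 630 (adjusted p = 0.181).

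The other copy, mars1.S, held 11.3, 10.7, 10.1, 13.6 and 12.9 CPM in controls. Its lead 210 libraries held 18.3, 13.6, 14.1, 14.9 and 21.9 CPM and its lead 630 libraries 15.8, 16.6, 15.1, 14.8 and 14.0 CPM. The groups did not overlap, although the lowest lead 210 library and the highest control were equal after rounding. Again libraries A and E were the highest of the lead 210 group. The log2 fold change was 0.50 ± 0.12 at lead 210, 1.42-fold with an interval of 1.19 to 1.70 (adjusted p = 0.039), and 0.38 ± 0.12 at lead 630 (adjusted p = 0.14). The mars1.L call was lost without control library A (adjusted p = 0.0718) or lead 210 library A (0.075), and the mars1.S call was lost in 5 of 10 such fits, with an adjusted p of up to 0.129. With the counts of both copies summed before the fit, mars1 differed by 0.53 on the log2 scale (adjusted p = 0.0136, edgeR). In the authors' deposited table, made from the same libraries, mars1.L and mars1.S were the synthetase genes past the threshold at lead 210. Their adjusted p there was 0.0056 and 0.0167 (likelihood-ratio test). These were 2 of the 50 genes, beside 690 of all 28950 genes in that table, higher or lower.

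Over all synthetase genes found by name, 40 of 49 were above 0 at lead 210, against 49.5% of all genes. The median log2 fold change was 0.12, against -0.0021 over all genes, and 2 genes were called higher and 0 lower (background 1.76% and 0.144%). At an unadjusted p under 0.05, 14 were higher and 0 lower, with 8.01% and 4.84% of all genes as background. Groups that did not overlap, every exposed library above every control, were found for 5 genes at lead 630 (farsa.L, LOC108699340, mars1.L, mars1.S and rars2.S; background 2.86%). At lead 210 there were 3 (farsb.L, mars1.L and mars1.S; background 2.94%). No synthetase gene lay wholly below control in either comparison (background 0.983% at lead 630 and 1.06% at lead 210). Both comparisons share the 5 control libraries and are not independent of each other.

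**Figure D2:**
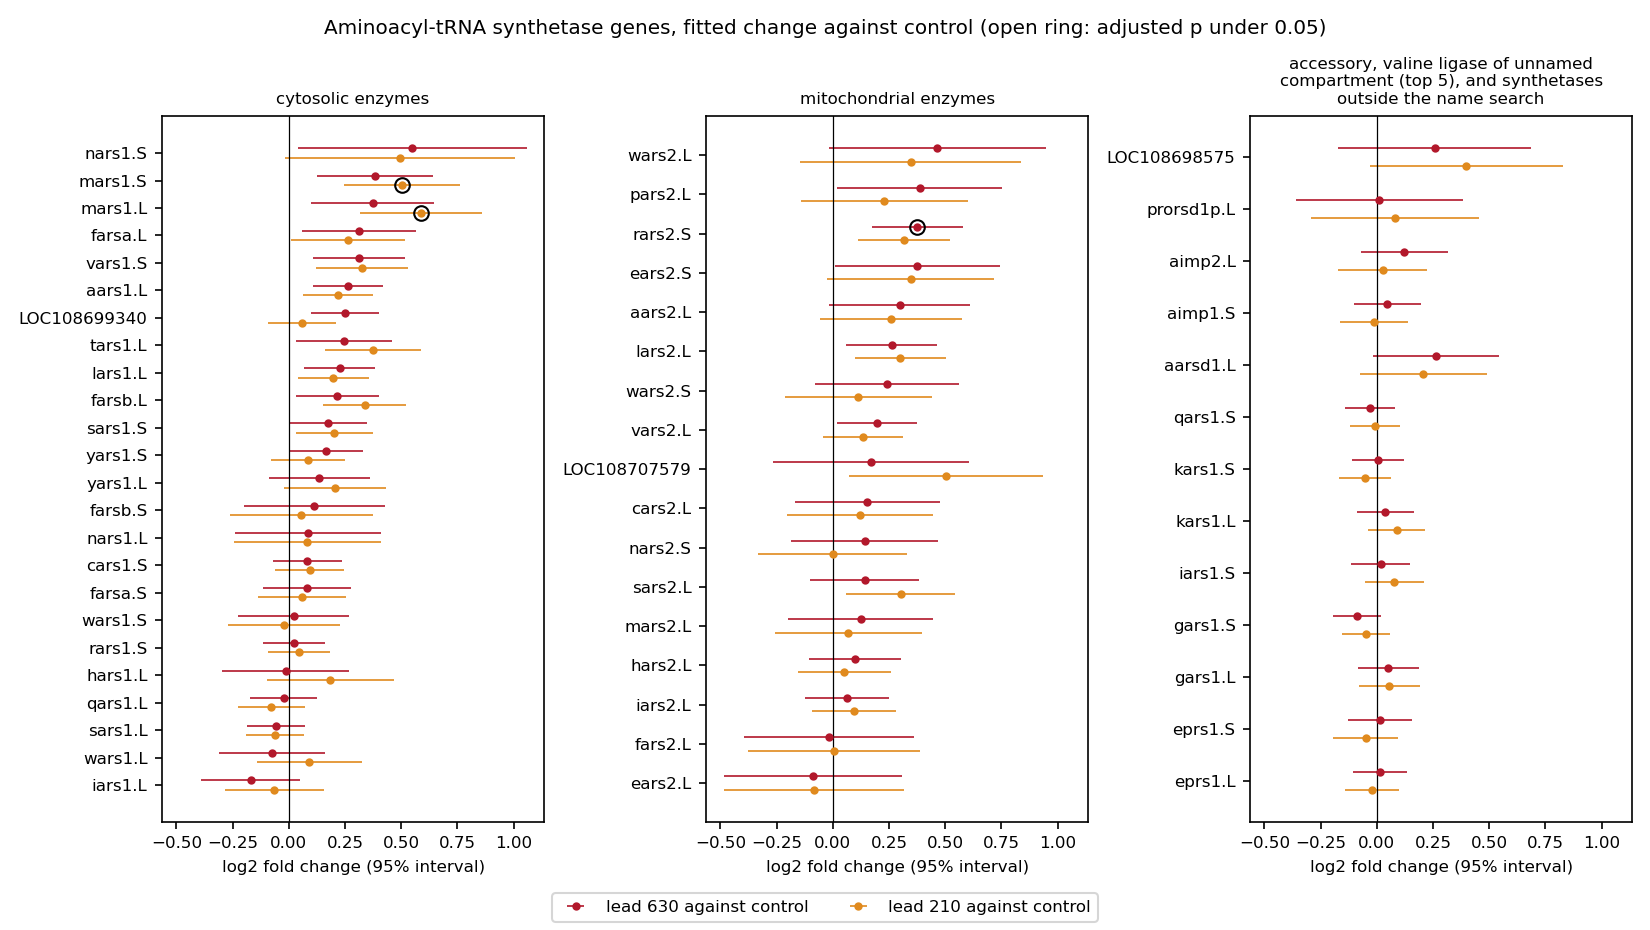
Log2 fold change (x axis) with its 95% interval for synthetase genes against control, at lead 630 (red) and lead 210 (orange); black rings mark an adjusted p under 0.05. Most points lie right of 0 in the cytosolic and mitochondrial panels, with 3 ringed calls, while the 8 genes at the foot of the third panel lie close to 0.

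The cytosolic and mitochondrial enzymes found by name were also described apart. At lead 630, 21 of 26 cytosolic genes were above 0 with a median log2 fold change of 0.15 (range -0.17 to 0.55), and 16 of 18 mitochondrial genes with a median of 0.18. Calls numbered 0 and 1, against 1.98% of all genes called higher. At an unadjusted p under 0.05, 12 cytosolic and 6 mitochondrial genes were higher, against 8.32% of all genes. At lead 210, 20 of 26 cytosolic genes were above 0 with a median of 0.09, and 16 of 18 mitochondrial genes with a median of 0.18. Calls there numbered 2 and 0, against 1.76% of all genes called higher. At an unadjusted p under 0.05, 9 cytosolic and 5 mitochondrial genes were higher there, against 8.01% of all genes. The difference between the sets was not tested.

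The same comparison can be read library by library, as the mean over genes of log2(CPM + 0.5) less the control mean. For cytosolic enzymes the 5 controls ran from -0.05 to 0.04, lead 210 from 0.09 to 0.24 and lead 630 from 0.07 to 0.19. In this mean over genes found by name, where each gene weighs the same, the exposed libraries all lay above the controls. The summed CPM of these genes overlapped at lead 210. It ran from 950 to 1020 in controls, 954 to 1100 at lead 210 and 1030 to 1080 at lead 630. The 8 cytosolic genes outside the name search (described further on) are in neither value. Their log2 mean ran from -0.03 to 0.04 in controls and -0.05 to 0.06 at lead 630. Their summed CPM ran from 1200 to 1260 and 1200 to 1280. In the log2 mean of mitochondrial enzymes the controls ran from -0.10 to 0.09, lead 210 from 0.10 to 0.24 and lead 630 from 0.04 to 0.31. Here library D of lead 630, at 0.04, fell among the controls, and control library B was the highest control. Without library D of lead 630 the mitochondrial median was 0.23 in place of 0.18 and no mitochondrial gene was called, while aars1.L and lars1.L were called among the cytosolic genes.

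**Figure D3:**
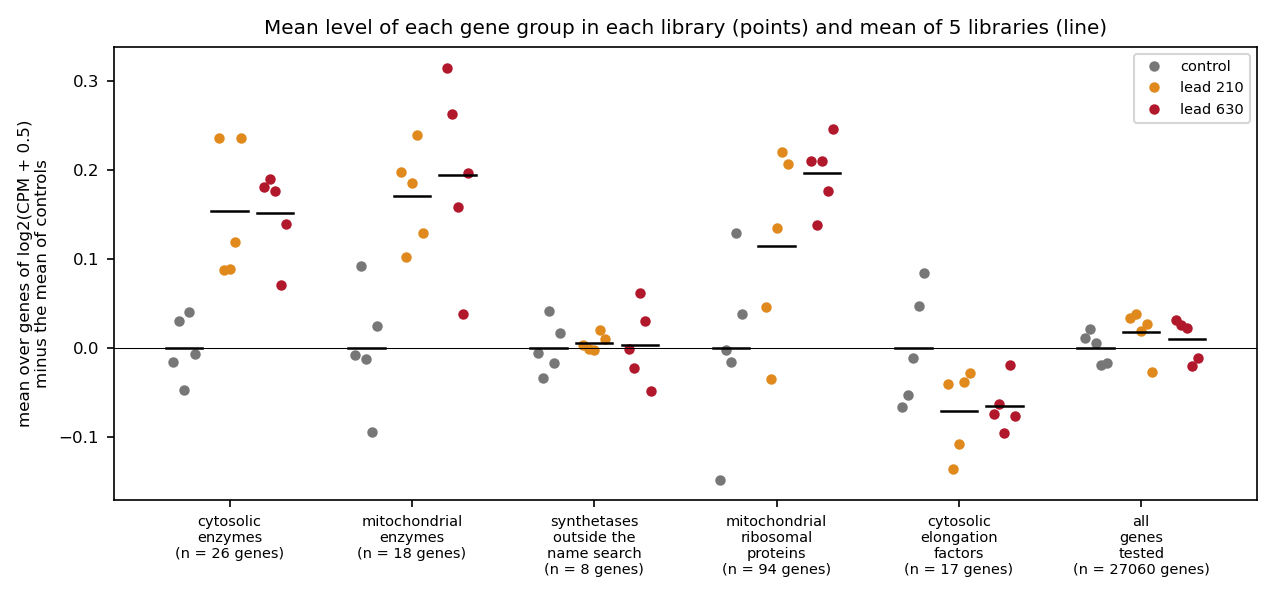
Mean over genes of log2(CPM + 0.5) minus the control mean (y axis, log2 units) per library (points) for 6 gene groups, with the mean of 5 libraries as a line. In this mean, exposed libraries lie above all controls for the cytosolic enzymes found by name. For mitochondrial enzymes 1 lead 630 library falls among the controls, and the 8 synthetases outside the name search stay near 0.

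Among the cytosolic enzymes the lowest p at lead 630 belonged to aars1.L, the alanine enzyme, which also proofreads mischarged tRNA. Its control libraries held 73.6, 77.2, 69.1, 76.2 and 81.0 CPM, its lead 210 libraries 95.7, 81.5, 78.4, 84.5 and 98.8, and its lead 630 libraries 94.4, 92.6, 94.1, 77.6 and 93.5. All lead 630 libraries but D exceeded the highest control. The log2 fold change was 0.26 ± 0.07 at lead 630 (adjusted p = 0.0845, edgeR) and 0.22 ± 0.07 at lead 210 (adjusted p = 0.188). Without library D of lead 630 the first became 0.31 with an adjusted p of 0.0211.

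LOC108699340 is described as a cytoplasmic threonine enzyme-like gene. It held 21.3, 24.9, 23.7, 22.7 and 22.7 CPM in controls, 25.9, 24.6, 21.5, 25.6 and 22.4 at lead 210 and 25.4, 28.2, 25.4, 29.1 and 29.0 at lead 630. The lead 630 libraries all lay above the controls. At lead 210 libraries A and D did, and the other 3 lay among the controls. The log2 fold change was 0.25 ± 0.07 at lead 630 (adjusted p = 0.0873) and 0.06 ± 0.07 at lead 210 (adjusted p = 0.791). The named threonine enzyme gene, tars1.L, had 0.25 ± 0.10 at lead 630 and 0.37 ± 0.10 at lead 210 (adjusted p = 0.291 and 0.0716). The valine enzyme gene vars1.S averaged 20.4, 25.5 and 25.2 CPM in control, lead 210 and lead 630, with log2 fold changes of 0.33 and 0.31 (adjusted p = 0.12 and 0.127 at lead 210 and lead 630).

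The phenylalanine enzyme is a heterotetramer of an alpha subunit, encoded by farsa, and a beta subunit, encoded by farsb. farsa.L held 4.97 to 5.26 CPM in controls and 5.44 to 7.32 CPM at lead 630, without overlap, with a log2 fold change of 0.31 ± 0.12 (adjusted p = 0.241, edgeR). At lead 210 it held 4.94 to 7.09 CPM, which overlapped the controls. farsb.L held 12.1 to 15 CPM in controls and 16.1 to 19.5 CPM at lead 210, without overlap, and its log2 fold change was 0.34 ± 0.09 (adjusted p = 0.0581). With both farsb copies summed, the difference at lead 210 was 0.29 and passed (adjusted p = 0.0436).

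The largest estimate at lead 630 belonged to nars1.S, a copy of the cytosolic asparagine enzyme, at 0.55 ± 0.24 (adjusted p = 0.334). Its control libraries spread from 4.71 to 14.6 CPM, which overlaps the range of 12.2 to 16.3 CPM at lead 630. At the other end stood iars1.L, the isoleucine enzyme, at -0.17 ± 0.10 (adjusted p = 0.552). Its lead 630 libraries B to E held 89.4, 74.4, 76.0 and 78.5 CPM, below the control range of 93.6 to 102. Library A of lead 630 held 118 CPM, above that range. Genes close to 0 at lead 630 included rars1.S (0.02), qars1.L (-0.02), wars1.S (0.02) and hars1.L (-0.01), the arginine, glutamine, tryptophan and histidine enzymes.

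Of the mitochondrial enzymes after rars2.S, the lowest p in both comparisons with control was that of lars2.L, the leucine enzyme. It held 12.3 to 14.7 CPM in controls (median 13.0), 16.6, 18.9, 16.1, 13.4 and 16.7 at lead 210 and 18.6, 15.2, 15.8, 14.1 and 15.9 at lead 630. In each exposed group library D alone lay below the highest control. The log2 fold change was 0.26 ± 0.10 at lead 630 and 0.30 ± 0.10 at lead 210 (adjusted p = 0.214 and 0.152, edgeR). Estimates below 0 at lead 630 were those of ears2.L (glutamate, -0.09 ± 0.19) and fars2.L (phenylalanine, -0.02 ± 0.18).

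From the genes found by name, a cytosolic and a mitochondrial value could be set side by side for 13 amino acids, with copies averaged. Copies outside the name search, such as iars1.S and both copies of eprs1 (described further on), were not used. At lead 630 the mitochondrial log2 fold change was the higher of the pair for 9 of them, and at lead 210 for 8. The gap was wide for arginine (0.02 cytosolic, 0.38 mitochondrial) and tryptophan (-0.03 and 0.35) at lead 630. It ran the other way for methionine (0.38 and 0.12) and phenylalanine (0.18 and -0.02). No test of these gaps was made.

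Grouping by enzyme class gave like values at lead 630, with a median of 0.17 over 23 class I genes and 0.17 over 22 class II genes. At lead 210 the medians were 0.12 and 0.19. Of the cytosolic enzymes, the 8 genes of enzymes that sit in the multi-synthetase complex in mammals had a median of 0.13 at lead 630 and 0.01 at lead 210, where 4 were above 0. The 17 genes of enzymes known to be outside it had 0.14 and 0.18, with 15 above 0 at lead 210. With the 8 synthetase genes that the name search did not reach added (described further on), the medians of 14 genes in the complex were 0.02 and -0.02 at lead 630 and lead 210, and those of 19 genes outside it 0.11 and 0.09. The accessory genes aimp1.S, aimp2.L, aarsd1.L and prorsd1p.L ran from 0.01 to 0.26 at lead 630, none called. Among the scaffold genes the lowest p was that of eef1e1.L, which the name search did not reach, at 0.32 ± 0.10 (adjusted p = 0.114); its lead 630 libraries did not overlap with controls. The scaffold copies aimp1.L and aimp2.S, outside the name search too, were at -0.08 ± 0.08 and 0.13 ± 0.08 (adjusted p = 0.774 and 0.52).

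Estimates were lower among the synthetase genes with more counts. The 18 genes at a mean of 20 CPM or more had a median of 0.11 at lead 630 and 0.06 at lead 210, with 15 and 12 above 0. With the synthetase genes outside the name search added, this bin held 26 genes. Their medians were 0.0498 at lead 630 and 0.0479 at lead 210, with 21 and 15 above 0. The 31 genes at 1 to 20 CPM had medians of 0.20 and 0.21, with 27 and 28 above 0. Over all genes tested the same bins had medians of -0.0003 and -0.0079 at lead 630 and -0.0081 and 0.0029 at lead 210. The part of count depth in the family's values was not tested.

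The name search covered the 28950 genes of the authors' deposited table, so 8068 counted genes, 1525 of them tested here, could not enter it. By RefSeq symbol 8 of these are cytosolic synthetase genes: both copies of eprs1 (glutamate and proline), gars1 (glycine) and kars1 (lysine), and iars1.S and qars1.S. The glycine and lysine enzymes serve both compartments in animals. All 8 held 70.9 to 268 CPM in controls, and none was called by edgeR (0 at an unadjusted p under 0.05 in either comparison with control). Of all genes, 1.98% were called higher and 0.303% lower at lead 630, and 1.76% and 0.144% at lead 210. At an unadjusted p under 0.05 the shares were 8.32% and 4.62% at lead 630, and 8.01% and 4.84% at lead 210. For 8 genes, 0 called is near the background. At lead 630 their log2 fold changes ran from -0.09 to 0.05 with a median of 0.01, and at lead 210 the median was -0.02. With these 8 added, 27 of 34 tested cytosolic genes were above 0 at lead 630 and the median fell to 0.08; at lead 210 it was 23 of 34 with a median of 0.08. The mitochondrial medians beside these were 0.18 and 0.18. Mitochondrial genes averaged at most 59.2 CPM in controls, below each of the 8 added genes, so compartment and count level are not separated in these medians. The gars1 and kars1 copies count as cytosolic in them.

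Both homeologs were found by the name search for 10 enzymes, and the response of the copies was compared as the change in the log2 ratio of .L to .S. None of the 10 pairs was called with limma in any comparison, against a background of 1.12% of 7074 pairs at lead 630 and 1.02% at lead 210. Both copies were above 0 for 7 of 10 pairs at lead 630 and 6 of 10 at lead 210. The mars1 copies differed by -0.02 at lead 630 (95% interval -0.27 to 0.23) and by 0.08 at lead 210 (-0.17 to 0.33). Among these 10 pairs the lowest p belonged to sars1, the serine enzyme. There .L stood at -0.06 and .S at 0.17 at lead 630, a difference of -0.23 with an interval of -0.44 to -0.03 (adjusted p = 0.431). For nars1 the difference at lead 630 was -0.50 with an interval of -1.02 to 0.01. Some pairs with a copy outside the name search had intervals without 0, though none was called. At lead 630 these were gars1 (0.14, interval 0.03 to 0.25, adjusted p = 0.333, limma) and iars1 (-0.20, -0.39 to -0.02, adjusted p = 0.448). At lead 210 it was kars1 (0.14, 0.03 to 0.25, adjusted p = 0.355). Reads of near-identical copies may have been split or dropped in counting, which makes the values of such pairs uncertain.

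**Figure D4:**
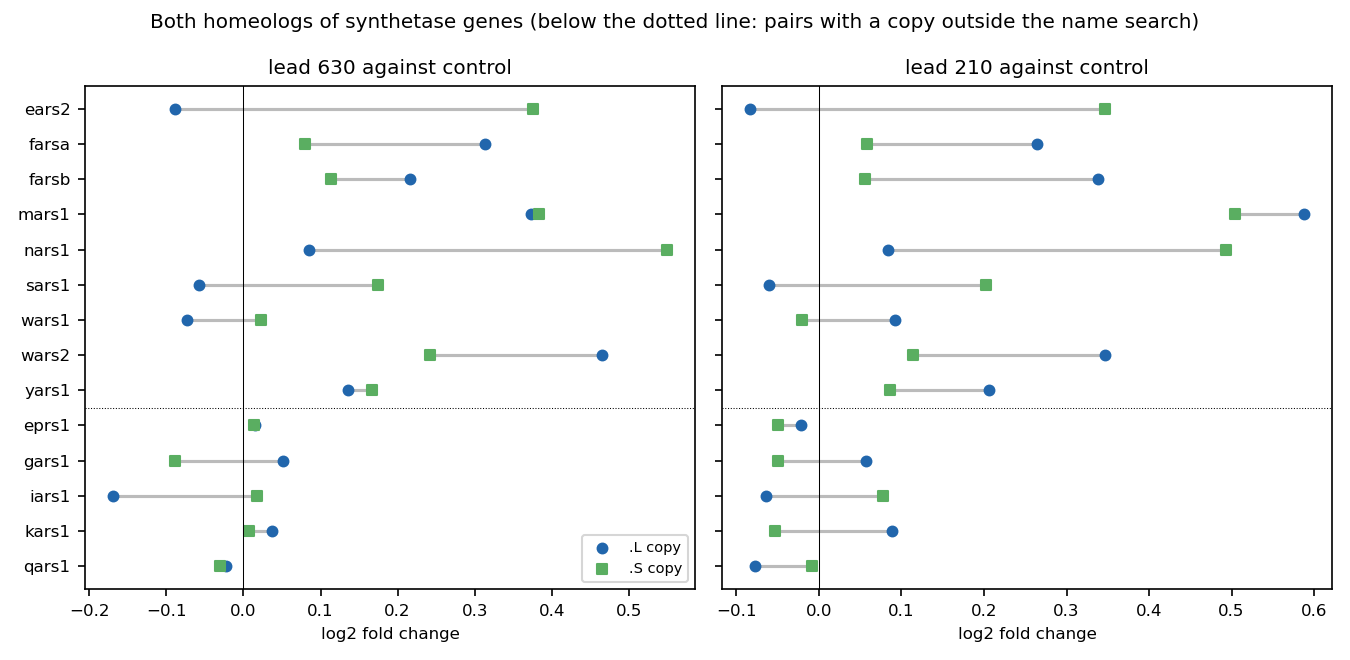
Log2 fold change against control (x axis) of the .L copy (circle) and the .S copy (square) of synthetase genes with both copies tested, joined by a line, at lead 630 (left) and lead 210 (right). The mars1 copies lie together at 0.37 and 0.38 at lead 630, nars1 and ears2 lie far apart, and pairs below the dotted line stay near 0 apart from iars1.L.

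Between the lead levels no gene was called, 0 of 27060 by edgeR, and therefore no synthetase. At an unadjusted p under 0.05, 1 synthetase gene was higher at lead 630 than at lead 210 and 0 lower (background 2.14% and 2.52%). The median over the 49 was 0.03, and 29 of them were above 0, against 51.1% of all genes. No synthetase gene's libraries at lead 630 lay wholly above or below those at lead 210 (background 0.37% and 0.281%). The gene was LOC108699340, at 0.19 (95% interval 0.04 to 0.34, unadjusted p = 0.0153, adjusted p = 0.932). Of the mitochondrial genes, LOC108707579, described as a probable asparagine enzyme, averaged 2.38 ± 0.561, 3.43 ± 0.761 and 2.76 ± 0.545 CPM, and sars2.L, the serine enzyme, 8.52 ± 1.23, 10.5 ± 0.750 and 9.40 ± 1.21 CPM. Their differences between lead 630 and lead 210 were -0.33 and -0.16, with intervals that span 0.

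Genes around the synthetases were described from lists by symbol. In the ATF4 pathway, 2 of 27 tested genes were called higher at lead 630 and at lead 210 (background 1.98% and 1.76% of all genes), with medians of 0.07 and 0.02. They were ddit3.L, the stress-induced transcription factor CHOP (0.55 ± 0.10, adjusted p = 0.00465; 0.45 ± 0.10, adjusted p = 0.0286, edgeR), and cebpb.L, a transcription factor of the same bZIP class (0.49 ± 0.11, adjusted p = 0.0148; 0.46 ± 0.11, adjusted p = 0.0253). In the 10 fits that each left out a library of the groups compared, ddit3.L passed in 10 and cebpb.L in 8 at lead 630. At lead 210 they passed in 3 and 4, with an adjusted p of up to 0.105 and 0.0897. The second copy, ddit3.S, was at 0.40 ± 0.15 and 0.59 ± 0.15 (adjusted p = 0.23 and 0.054). The mRNA of ATF4 itself was at 0.02 ± 0.07 for atf4.L and 0.01 ± 0.08 for atf4.S at lead 630. asns.L, the asparagine synthetase gene and a known ATF4 target in mammals, was at -0.11 ± 0.14 (adjusted p = 0.825). chac1.L, another such target, was at 0.10 ± 0.15 (adjusted p = 0.852). Of 21 genes of the eIF2 kinases, eIF2 and its exchange factor eIF2B, 1 was called at lead 630, eif2b4.L (0.33 ± 0.07, adjusted p = 0.0168; passed in 7 of 10 such fits), and 0 at lead 210. Beside that 0 stand 3 genes higher at an unadjusted p under 0.05, against 8.01% of all genes. The symbol of GCN2, eif2ak4, matched no counted gene, so the kinase list does not include it. A gene described as GCN2-like was counted under a LOC symbol and is not reported here.

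Among the amino acid transporters, slc7a11.S, the cystine importer that feeds glutathione synthesis, rose from 0.445 ± 0.163 CPM to 2.76 ± 1.00 at lead 210 and 2.85 ± 0.941 at lead 630, log2 fold changes of 2.64 ± 0.36 and 2.67 ± 0.36 (adjusted p = 8.78e-05 and 5.91e-05, edgeR). slc1a5.S, a glutamine transporter, was called higher at lead 630 (0.75 ± 0.16, adjusted p = 0.0199), a call that held in 6 of 10 fits leaving out a library. slc7a10.L, which carries small neutral amino acids, had a log2 fold change of -0.75 ± 0.16 and was called lower (adjusted p = 0.0108). Of the 38 transporter genes tested, 2 were called higher and 1 lower at lead 630, and 1 higher at lead 210. The background for this list and the next was 1.98% of all genes called higher and 0.303% lower at lead 630. At lead 210 it was 1.76% and 0.144%. In serine, glycine, proline and one-carbon metabolism 1 of 19 was called in each comparison, mthfd1.L of the folate cycle (0.46 ± 0.08, adjusted p = 0.00251 at lead 630; 0.37 ± 0.08, adjusted p = 0.0191 at lead 210). Its call at lead 210 held in 6 of 10 such fits.

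Partners of the synthetases in translation lay above 0 in their median for the mitochondrial lists and below 0 for the cytosolic list. As background for the counts below, 48.7% of all genes were above 0 at lead 630 and 49.5% at lead 210. Called higher were 1.98% and 1.76% of all genes. At an unadjusted p under 0.05, 8.32% and 8.01% were higher, and 4.62% and 4.84% lower. Of 94 mitochondrial ribosomal protein genes 88 were above 0 at lead 630 with a median of 0.20, and 7 were called higher and 0 lower. At lead 210, 78 were above 0 with a median of 0.13 and 1 was called. At an unadjusted p under 0.05, 41 of the 94 were higher at lead 630 and 20 at lead 210, with 0 lower in both comparisons. mrps17.L was called in both (0.45 ± 0.09, adjusted p = 0.00857; 0.39 ± 0.09, adjusted p = 0.0305, edgeR), with mrps16.L, mrpl28.L and mrpl17.S next by p at lead 630 (0.55, 0.28 and 0.40). With a library left out, mrps17.L passed in 3 of 10 fits at lead 210 (adjusted p of up to 0.104), and at lead 630 mrps16.L, mrpl28.L and mrpl17.S passed in 9, 4 and 3 of 10. Of 16 mitochondrial translation factor genes 14 were above 0 at lead 630 with a median of 0.24. Among these 16, 7 were higher at an unadjusted p under 0.05 at lead 630 and 7 at lead 210, with 0 lower. gfm1.L, the mitochondrial elongation factor G1, was called at both levels (0.60 ± 0.10, adjusted p = 0.00184; 0.55 ± 0.10, adjusted p = 0.00582), and mtif2.L, the mitochondrial initiation factor 2, at lead 630 (0.60 ± 0.11, adjusted p = 0.00502). The 17 cytosolic elongation and release factor genes had medians of -0.06 and -0.08 at lead 630 and lead 210. None of the 17 was called by edgeR, with 1 higher and 1 lower at an unadjusted p under 0.05 at lead 630, and 3 and 1 at lead 210. Of 46 genes for tRNA processing, modification and export, 38 were above 0 at lead 630 with a median of 0.13, 10 higher at an unadjusted p under 0.05 and 0 called. At lead 210 the median was 0.09 and 1 was called, trmt61a.L, a tRNA methyltransferase subunit (0.73 ± 0.17, adjusted p = 0.0313; passed in 4 of 10 fits leaving out a library).

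Some markers of tissues moved with exposure as well. The background at lead 630 and lead 210 was 48.7% and 49.5% of all genes above 0. Called higher were 1.98% and 1.76% of all genes, and called lower 0.303% and 0.144%. At an unadjusted p under 0.05, 8.32% and 8.01% were higher, and 4.62% and 4.84% lower. Of 19 tested intestine markers 18 were above 0 at lead 210 with a median of 0.41, and 3 were called higher (enpep.L, dpp4.L and apob.L); at lead 630 the median was 0.25 and 0 were called, with 4 higher at an unadjusted p under 0.05. With a library left out, enpep.L passed in 10 of 10 fits, apob.L in 6 (adjusted p of up to 0.0713) and dpp4.L in 2 (up to 0.0898). Their summed level ran from 1410 to 2240 CPM in controls, 2080 to 2620 at lead 210 and 1760 to 2430 at lead 630. Of 17 proliferation markers 0 were above 0 in either comparison, with medians of -0.28 and -0.21 at lead 210 and lead 630, and 2 (cdk1.L and mcm5.S) were called lower at lead 210. Those calls held in 3 and 2 of 10 fits leaving out a library, with an adjusted p of up to 0.0982 and 0.124. Their sums ran from 162 to 215, 138 to 171 and 150 to 176 CPM in control, lead 210 and lead 630. At lead 630 the epidermis marker upk3a.L was called lower and the globin hbg2.L higher, calls that held in 5 and 3 of 10 such fits (adjusted p of up to 0.0873 and 0.102). In the epidermis and blood lists 0 of 6 and 8 of 11 tested genes were above 0 there, with medians of -0.20 and 0.27. The sums overlapped with controls. Epidermis markers ran from 3780 to 4600 CPM in controls and 3050 to 4840 at lead 630, and blood markers from 2160 to 3250 and 2440 to 3140. Liver, skeletal muscle and neuron lists held no call by edgeR, with 1 gene lower in each at an unadjusted p under 0.05 at lead 630 and 2, 3 and 4 lower at lead 210. Of their 16, 18 and 12 tested genes, 7, 0 and 4 were above 0 at lead 630 and 5, 0 and 1 at lead 210. The medians were -0.02, -0.09 and -0.05 at lead 630 and -0.16, -0.19 and -0.15 at lead 210. The part of these markers in the synthetase values was not tested.

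How large a change the data could hide is set by the intervals. Of the 48 synthetase genes not called at lead 630, the upper bound of the fold change was under 1.2 for 9, under 1.5 for 38 and under 2 for 47. At lead 210, of 47 not called, it was under 1.2 for 13, under 1.5 for 39 and under 2 for 46. The exception to the bound of 2 at both levels was nars1.S, with upper bounds of 2.08 and 2.01. The lowest lower bound among genes not called was 0.714 at lead 630 and 0.715 at lead 210. On the log2 scale the interval spanned 0 for 31 of the 48 genes and 35 of the 47. The leucine enzyme-like gene LOC108712405, which RefSeq lists as a pseudogene, was too low to test, at means of 0.251, 0.355 and 0.458 CPM in control, lead 210 and lead 630, where 3 counts correspond to 0.124 to 0.274 CPM.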

How the data were processed

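The measurements are read counts per gene in 15 libraries of pooled whole embryos, 5 per group. Per the labels' protocols, each library was prepared from 250 ng of total RNA by poly(A) selection with strand-preserving cDNA synthesis. The tools named in the submitters' processing notes are Trim Galore, HISAT2, edgeR and kallisto. Their versions, the build, the annotation and the way reads were counted are unknown here. The authors deposited raw counts, and a table of their own comparisons with a log2 fold change, a log2 mean CPM, a likelihood-ratio score, a p-value and an adjusted p-value per gene.

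RefSeq symbols of Xenopus_laevis_v10.1 matched all 50 genes by identifier; for 1 of them, yars1.S, the authors use the letter L. Compartments came from chosen lists of gene symbols or, for genes on none of them, from the authors' descriptions. Neither a genome nor sequence tables were used here, so no sequence or coordinate is printed.

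The fit used R 4.3.3 with edgeR 4.0.16: filterByExpr by group, TMM, and 1 robust quasi-likelihood model of all 15 libraries with group as the only term. Adjustment was by Benjamini-Hochberg over 27060 genes, with calls under 0.05. Standard errors and 95% intervals came from the same model. Homeolog ratios were tested with limma 3.58.1 (prior count 2) over 7074 pairs. Pools, not animals, are the replicates, and p-values weigh a difference between groups against the estimated spread between pools. Steps were tested on simulated data. The floor of 3 counts covers counting error only.

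Named genes were those called, those of lowest p per compartment and comparison, and up to 4 called genes per list and level by p, with atf4, asns, ddit3, chac1, aimp1, aimp2 and eef1e1 whatever their p. Some genes that this rule names are not reported here or drawn in the plots, though they count in the totals. The other synthetases named were chosen after their values were seen, as were the level bins, the enzyme class and complex groupings and the pairing by amino acid. The members and lists were chosen with earlier results of these data known. Alternatives were RLE size factors or total counts, no filter or 1 CPM in 5 libraries, DESeq2 1.42.0, limma-voom, a fit of only the groups compared, homeologs summed, a replicate block, and each library left out in turn.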

Additional observations from a re-analysis of the deposited data

Results flagged for a closer look

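In 57 groups of 5 libraries, 6 held a library whose gap to its nearest neighbour was over 0.71 of the group's range; chance gives about 1 in 20. For rars2.S at lead 630 the library was A, at 9.79 CPM against 8.89 to 9.01 in the others. For aars1.L at lead 630 it was D, at 77.6 CPM, below the others. For LOC108707579 at lead 210 it was E, at 2.12 CPM, below the others. The summed exocrine pancreas markers gave the remaining 3: 2030 CPM in control B, 44.5 CPM in lead 210 C and 49.0 CPM in lead 630 B. These libraries were kept in the values of the report, except where a value is said to come from a fit that left a library out.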

How the results depend on the processing

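No synthetase value that passed in any setting changed sign. The share of all genes called is given in this report only for the main fit. Counts of calls in other settings, or with a library left out, therefore have no background beside them, here and in the paragraphs above. The number called higher at lead 630, 1 as reported, was 0 on total counts without TMM, 0 with no filter on low counts and 0 with only the compared groups in the fit, and the mitochondrial count was 0 in these settings too. It was 2 with DESeq2, where 1 cytosolic gene, aars1.L, joined rars2.S. At lead 210, 2 as reported, DESeq2 called 4, all cytosolic (farsb.L and tars1.L joined the mars1 copies), and the fit of only the compared groups called 1, cytosolic. Without each library in turn the calls at lead 630 ran from 0 to 2, from 0 to 2 among cytosolic and from 0 to 1 among mitochondrial genes. At lead 210 they ran from 0 to 3, from 0 to 3 and from 0 to 0. Median log2 fold changes then ran from 0.12 to 0.19 (cytosolic) and 0.17 to 0.23 (mitochondrial) at lead 630, and from 0.10 to 0.13 and 0.15 to 0.23 at lead 210. The cytosolic median reported at lead 210 with all libraries, 0.0927, lay below its range. No homeolog pair was called in any setting.

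The labels give letters A to E in each group. Same-letter libraries correlated from -0.118 to 0.311 in their deviations from group means, not all above 0.1, and not every library was closest to its own letter, so the letters were not taken as pairs. With a replicate block, 2 synthetase genes were called at lead 630, 1 of them cytosolic (aars1.L, adjusted p = 0.0425), and 2 at lead 210. Precision is limited by 5 pools a group: standard errors ran from 0.06 to 0.24 log2 units.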
